A study of Saccharomyces cerevisiae with 12 samples.

Results

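The genes of the small (40S) ribosomal subunit of budding yeast were followed across 6 groups of libraries: 57 genes, RPS0A to RPS31 and ASC1, of the 7126 genes in the deposited count table. The rule takes genes by name from the known makeup of the cytosolic ribosome and uses no measured value, though the set was picked for study with earlier results of these data known. Of the 57 genes, 48 form 24 pairs of A and B paralogs and 9 have no paralog. The reference annotation gives 37 of them 1 intron each and none to the other 20. Both genes carry an intron in 17 pairs, neither does in 6, and in the RPS22 pair only RPS22B does.

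Ribodepleted total RNA of Saccharomyces cerevisiae in the BY background was sequenced, and the study asked how removal of an intron bears on the repression of genes during starvation. The groups are mms2-intron deletion cells, ysf3-intron deletion cells and wild-type cells, each at 48 h, labelled as stationary phase, and in log phase. MMS2 encodes a ubiquitin-conjugating enzyme variant of DNA damage tolerance and YSF3 a splicing factor of the SF3b complex, so neither deletion touches a ribosomal protein gene. All 6 groups grew in synthetic minimal medium with 2% glucose and the same supplements. Each genotype is held as 2 numbered strains, and each strain gave 1 library in each phase, so n = 2 libraries per group. Nothing in the labels says that a strain was grown in more than 1 culture, and a p-value here measures the spread between these libraries.

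The small subunit binds messenger RNA and holds the decoding centre, and its proteins are needed in equal numbers. Yeast kept both copies of many of these genes after its genome duplicated, and introns, rare elsewhere in this genome, are common among them. In growing cells the regulators Rap1, Fhl1, Ifh1 and Sfp1 drive these genes as 1 regulon, and starvation shuts the regulon down.

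The libraries held between 4871513 and 16581925 counts, and all 57 genes passed the filter on low counts and are among the 6068 genes tested. Their counts ran from 2 for RPS21A, RPS21B and RPS28B in a 48 h wild-type library to 42943. The MMS2 and YSF3 messages do not test the deletions, because counts are per gene and not per intron. MMS2 stood at 20.3 to 26.4 CPM (counts scaled to library size) in the mms2-intron deletion and 15.9 to 21.9 CPM in the wild type, and YSF3 at 2.22 to 4.06 CPM in the ysf3-intron deletion and 1.62 to 2.52 CPM in the wild type. The wild-type strains differ in mating type. The alpha-cell gene STE3 stood at 578 CPM in log phase and 49.2 CPM at 48 h in wild-type strain 1 and at no more than 6.29 CPM in the other 10 libraries, while STE2, the a-cell counterpart, was at 9.59 CPM or less in wild-type strain 1 and at 52.0 to 1000 CPM elsewhere. Small nucleolar RNA, which ribodepletion leaves in, also differed by genotype. At 48 h it took 9.41 and 11.6% of counts in the mms2-intron deletion, 10.1 and 9.35% in the ysf3-intron deletion and 4.64 and 5.76% in the wild type. In log phase the shares were 4.65 and 5.02%, 6.49 and 4.16%, and 3.21 and 2.64%, in the same order.

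Levels were compared between genes as CPM per kb of coding length. In wild-type log phase the highest gene was RPS29B at 6195 and 8045 CPM per kb, followed by RPS26A at 4598 and 4017 and RPS31 at 4251 and 4212. RPS29B lay above the other 2 in both libraries, while the values of RPS26A and RPS31 overlap. The lowest were RPS28B at 5.19 and 3.23 CPM per kb, RPS21B at 17.3 and 9.29, RPS27A at 22.3 and 12.02, RPS21A at 26.3 and 14.1 and RPS29A at 56.1 and 40.6. The same 3 genes led in every other group too, though in the ysf3-intron deletion in log phase RPS29B ranked below RPS26A and RPS31. RPS28B ended last in all groups but wild-type cells at 48 h, where RPS21A did.

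The share of all counts held by the 57 genes shows the phase difference in each library. At 48 h it was 0.672 and 0.768% in the mms2-intron deletion, 0.654 and 0.620% in the ysf3-intron deletion and 0.526 and 0.582% in the wild type. In log phase it was 4.42 and 4.31% in the mms2-intron deletion, 5.02 and 3.87% in the ysf3-intron deletion and 4.09 and 3.98% in the wild type. The phases do not overlap in any genotype, and in log phase the wild-type shares lie within the range of the ysf3-intron deletion.

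**Figure D1:**
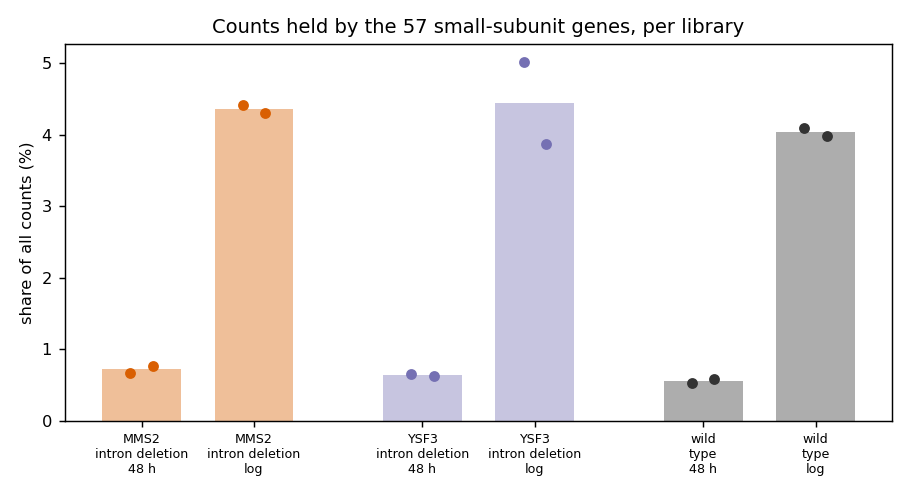
Share of all counts (%, y axis) held by the 57 small-subunit genes, for 48 h and log phase in each genotype. Points are libraries and bars the mean of 2. All 6 libraries at 48 h lie below 0.8% and all 6 in log phase above 3.8%.

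Stationary cells were set against growing cells to ask which of these genes starvation turned down. Nearly all of them fell in every genotype. In the mms2-intron deletion 54 of 57 fell, in the ysf3-intron deletion 57 of 57 and in the wild type 56 of 57 (edgeR quasi-likelihood test, adjusted p under 0.05, adjusted over all 6068 genes). The share of all genes tested that fell was 30.7%, 32.9% and 34.3%, in the same order. The median log2 fold change of the 57 genes was -2.50, -2.80 and -2.69, beside 0.06, 0.03 and -0.01 over all genes. The 80 tested genes of the large subunit had medians of -2.52, -2.81 and -2.66, with 79, 79 and 78 lower. In bulk RNA a loss in part of the cells and a smaller loss in all of them cannot be told apart. In the authors' deposited tables, which list genes at a stricter adjusted p under 0.001 (DESeq2), 54, 56 and 54 of the 57 genes are lower at 48 h. These tables hold 2690, 2629 and 2865 genes in all.

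**Figure D2:**
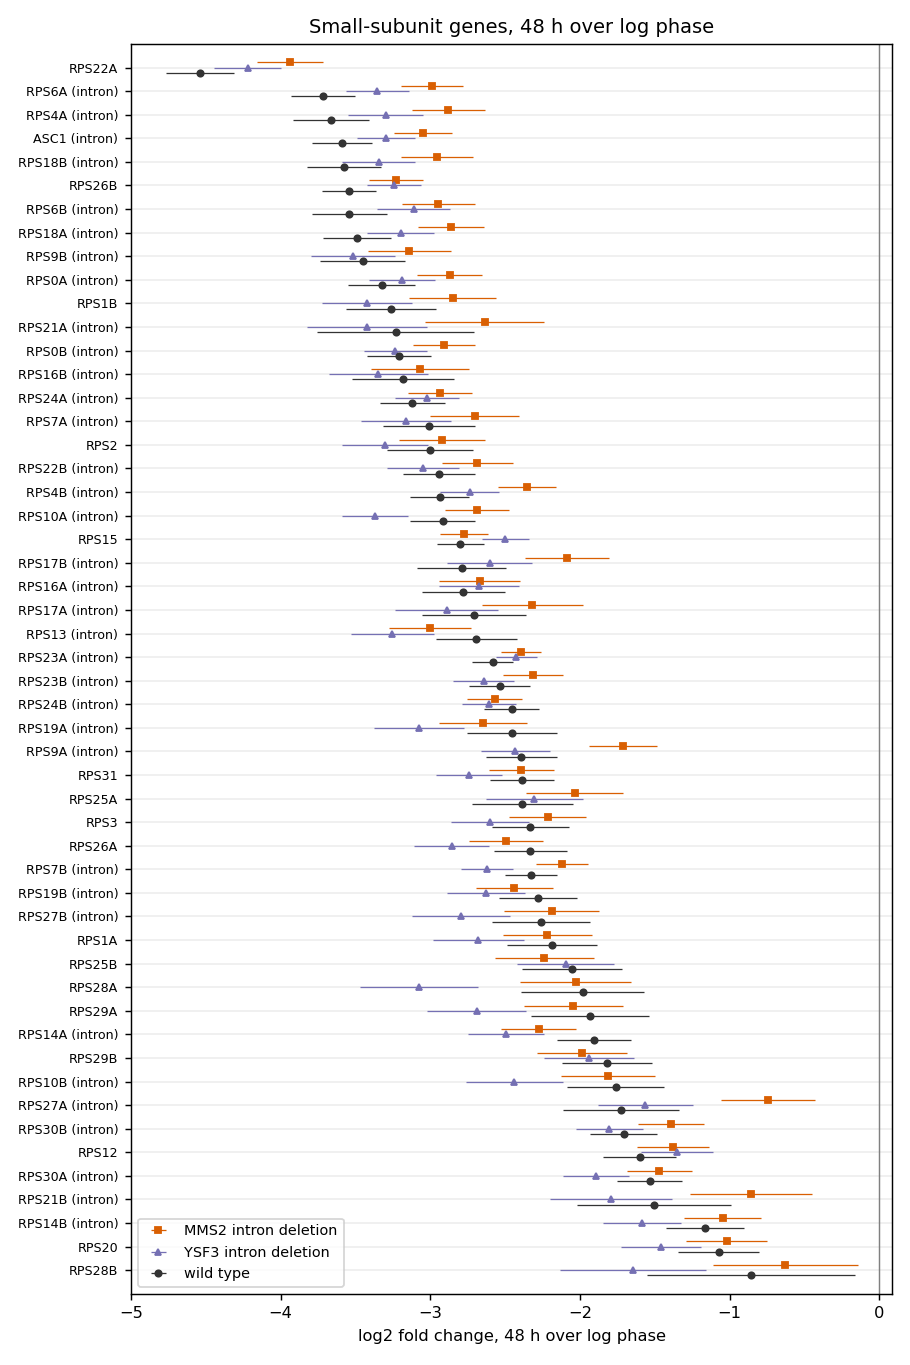
Log2 fold change of 48 h over log phase (x axis) for 52 of the 57 genes (y axis, ordered by the wild type), with the approximate error as a bar; squares mark the mms2-intron deletion, triangles the ysf3-intron deletion and circles the wild type. Genes with an intron are marked. All values are below 0, from RPS22A at the top to RPS28B at the bottom.

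RPS22A (YJL190C), one gene of the pair for a protein of the subunit body, lay lowest. It stood at 74.8 and 96.9 CPM at 48 h and 1256 and 1387 CPM in log phase in the mms2-intron deletion, at 63.3 and 59.9 CPM against 1365 and 931 CPM in the ysf3-intron deletion, and at 70.7 and 69.5 CPM against 1548 and 1718 CPM in the wild type. The phases are far apart in every strain. Its log2 fold change was -3.94 ± 0.22, -4.22 ± 0.22 and -4.54 ± 0.23 (± an approximate error, the size of the fold change over the root of F; edgeR adjusted p = 1.5e-07, 8.6e-08 and 6.6e-08). RPS6A was also among the lowest, at -2.99 in the mms2-intron deletion, -3.36 in the ysf3-intron deletion and -3.72 in the wild type. Rps6 is the protein of the subunit that Ypk3 phosphorylates.

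At the other end, RPS20 (YHL015W), whose protein lies in the head of the subunit, fell with log2 fold changes of -1.02 ± 0.27 in the mms2-intron deletion, -1.46 ± 0.27 in the ysf3-intron deletion and -1.07 ± 0.27 in the wild type. Its CPM was 250 and 286 at 48 h against 556 and 533 in log phase in the mms2-intron deletion, 246 and 219 against 809 and 470 in the ysf3-intron deletion, and 111 and 177 against 342 and 268 in the wild type. RPS14B (YJL191W) is the minor gene for Rps14, a protein that binds the RPS14B pre-mRNA and curbs its splicing. It fell with log2 fold changes of -1.05, -1.58 and -1.17 in the same order. RPS14B and RPS22A are neighbours on chromosome X (sacCer3, chrX:73787-74611 on the plus strand and chrX:74910-75302 on the minus strand), and they stood near opposite ends of the range.

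RPS28B and RPS21B were counted too thinly for a firm value. RPS28B (YLR264W), whose message is decapped through Edc3 when Rps28 is in excess, had 4 and 48 counts at 48 h against 37 and 58 in log phase in the mms2-intron deletion, 18 and 21 against 66 and 70 in the ysf3-intron deletion, and 2 and 8 against 16 and 11 in the wild type. Its log2 fold change was -0.63 ± 0.49 (adjusted p = 0.28), -1.65 ± 0.49 (adjusted p = 0.012) and -0.86 ± 0.70 (adjusted p = 0.30), so that only the middle one passed. RPS21B was at -0.86 ± 0.41 (adjusted p = 0.087) and RPS27A at -0.74 ± 0.32 (adjusted p = 0.059) in the mms2-intron deletion. They completed, with RPS28B, the 3 that did not pass there, and both fell in the ysf3-intron deletion and the wild type. For RPS21B the wild-type value of -1.50 moved to -0.61 (adjusted p = 0.35) without both libraries of wild-type strain 1. Without that strain RPS20 was at -0.62 (adjusted p = 0.17) and RPS14B at -0.89 (adjusted p = 0.073) in the wild type.

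The 9 genes without a paralog fell in all 3 genotypes, and they covered most of the range. ASC1, the ribosome-bound scaffold protein known as RACK1 in mammals, was the lowest of the 9 in the mms2-intron deletion and the wild type and next to RPS2 in the ysf3-intron deletion. Its log2 fold change was -3.05 ± 0.19 in the mms2-intron deletion, -3.30 ± 0.19 in the ysf3-intron deletion and -3.59 ± 0.20 in the wild type. RPS2 and RPS15, for proteins at the mRNA entry and the head, were at -2.92 and -2.78 in the mms2-intron deletion, -3.30 and -2.50 in the ysf3-intron deletion, and -3.0 and -2.80 in the wild type. RPS13 was at -3.0, -3.25 and -2.69 in that order of genotypes. RPS31, whose protein is made as a fusion with ubiquitin, was at -2.39, -2.74 and -2.39, and RPS3, for another protein of the mRNA entry, at -2.22, -2.60 and -2.33. RPS12 was nearer to RPS20, at -1.38, -1.35 and -1.60. ASC1 and RPS13 are the only 2 of the 9 with an intron.

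Genes with an intron had a somewhat lower median than genes without one, and both classes fell throughout. In the mms2-intron deletion 35 of 37 genes with an intron and 19 of 20 without fell, with medians of -2.64 and -2.32. In the ysf3-intron deletion all 37 and all 20 fell, with medians of -2.89 and -2.72. In the wild type all 37 and 19 of 20 fell, with medians of -2.78 and -2.36. The ranges overlap, and the gene that fell most has none. Coding length ran with the phase change across the 57 genes, with Spearman's rho of -0.52 in the mms2-intron deletion, -0.44 in the ysf3-intron deletion and -0.57 in the wild type, longer genes lying lower. These are descriptions over genes of the same libraries, and GC content showed little relation, with rho between -0.09 and 0.03.

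Between A and B genes the median was -2.59 for A and -2.33 for B in the mms2-intron deletion, -2.96 and -2.64 in the ysf3-intron deletion, and -2.74 and -2.53 in the wild type. In 9 of 24 pairs in each genotype the A gene had the less negative change. Both genes fell in 21 pairs in the mms2-intron deletion, 24 in the ysf3-intron deletion and 23 in the wild type. The difference within a pair had a median of 0.56, 0.59 and 0.67 on the log2 scale, widest in RPS21 each time at 1.78, 1.63 and 1.73.

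The ratio of A to B within a library depends little on the scaling between libraries, except in thinly counted genes, where the small count added before taking logs matters. It was tested with limma over all 897 tested pairs of reciprocal best protein matches in the genome. Averaged over genotypes, 16 of 24 small-subunit pairs changed their ratio between phases at an adjusted p under 0.05, 6 toward A and 10 toward B. That share is not above the background, as 79.6% of all pairs changed. The median size of the change was 0.62 on the log2 scale for the 24 pairs and 0.97 for all pairs. How far paralogs can be told apart sets the weight of each ratio. Of 50-base stretches of coding sequence, 27.5% are unique to each gene in the RPS6 pair, 52.3% in RPS4 and 61.6% in RPS24, and 82.3% or more in the other pairs named here. The RPS6 genes differ at 6 of 711 coding bases and share a run of 311 identical bases. How the authors treated reads that match both genes is not given in the sources used here, so that the counts of RPS6, RPS4 and RPS24 genes are uncertain one by one. To show the contrast, the 90 bases with the most differences in RPS6 and in RPS22 are printed in sacCer3, on the coding strand, with the bases that differ between paralogs in capitals.
RPS6A, coding bases 52 to 141, chrXVI:377861-377950, minus strand: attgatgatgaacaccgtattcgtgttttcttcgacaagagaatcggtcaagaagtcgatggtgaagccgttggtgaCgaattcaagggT
RPS6B, coding bases 52 to 141, chrII:592282-592371, minus strand: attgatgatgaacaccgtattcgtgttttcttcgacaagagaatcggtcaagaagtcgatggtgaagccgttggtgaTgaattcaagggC
RPS22A, coding bases 301 to 390, chrX:74913-75002, minus strand: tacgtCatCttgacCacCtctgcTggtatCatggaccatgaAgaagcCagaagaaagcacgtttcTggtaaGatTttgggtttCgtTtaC
RPS22B, coding bases 301 to 390, chrXII:857225-857314, plus strand: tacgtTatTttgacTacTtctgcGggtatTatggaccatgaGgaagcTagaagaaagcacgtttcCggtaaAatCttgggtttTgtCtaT
The RPS6 stretch holds 2 differences and the RPS22 stretch 14, and all 50-base stretches are unique in RPS22.

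RPS22 was the pair with 1 intron between its genes, and its ratio moved toward B, the gene with the intron. RPS22A made up 80.8 and 80.0% of the pair's counts at 48 h against 90.2 and 91.0% in log phase in the mms2-intron deletion, 82.3 and 81.0% against 91.2 and 90.6% in the ysf3-intron deletion, and 86.4 and 83.0% against 92.9 and 95.5% in the wild type. The phases do not overlap, and the log2 ratio changed by -1.33 ± 0.13 (SE, limma adjusted p = 1.5e-06). It was lower in 6 of 6 strains, as the rule for naming a changed pair required. RPS21 changed by -1.44 ± 0.23 and RPS28 by -1.36 ± 0.22, both on few counts. RPS21A, a gene for a protein that touches Rps0, held 27.8 to 50% of its pair at 48 h and 50.5 to 65.2% in log phase. RPS28A held 71.4 to 88.7% of its pair at 48 h and 87.2 to 94.6% in log phase.

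RPS10 and RPS14 also moved toward B, with log2 ratio changes of -0.99 ± 0.12 and -0.96 ± 0.09. RPS10A held 43.9 to 56.5% at 48 h and 59.9 to 77.8% in log phase, and RPS14A 69.3 to 75.6% at 48 h and 82.4 to 85.4% in log phase. RPS9 and RPS27 moved toward A, which is the minor gene of both pairs. RPS9A rose to 14.4 to 19.7% of its pair at 48 h, against 7.72 to 10.7% in log phase (1.20 ± 0.10, adjusted p = 4.7e-07), and RPS27A was at 4.83 to 9.39% at 48 h against 2.98 to 4.35% in log phase (1.12 ± 0.15, adjusted p = 2.5e-05). The 7 changed pairs named here were chosen among those that moved in the same direction in 6 of 6 strains. RPS30, RPS0 and RPS23 moved least, by 0.01 ± 0.10, -0.01 ± 0.07 and 0.03 ± 0.12, and none of the 3 passed.

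**Figure D3:**
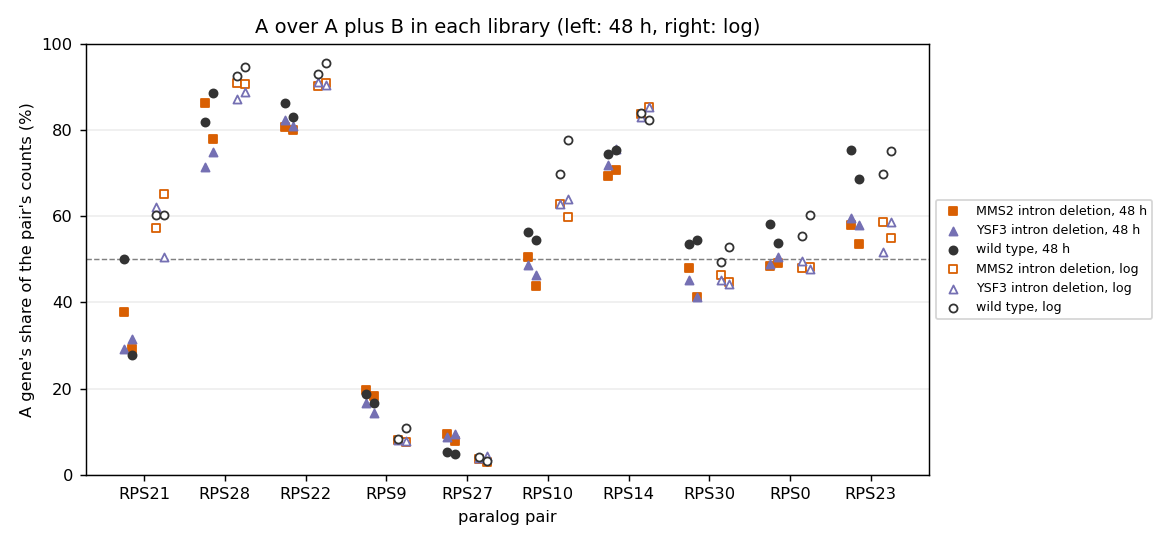
Share of the A gene in the counts of its pair (%, y axis) for 10 pairs (x axis), 7 with a large and the 3 with the smallest mean change between phases; filled symbols to the left are 48 h libraries and open symbols to the right log-phase libraries. RPS22A stands lower at 48 h than in log phase in all strains, and RPS9A stays below 20%.

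The deletions were compared with the wild type in each phase to ask what loss of 1 intron elsewhere does to expression. More small-subunit genes were higher than lower in all 4 comparisons. At 48 h, 28 of 57 were higher and 0 lower in the mms2-intron deletion, where 8.54% of all genes were higher and 2.09% lower, and 7 were higher and 0 lower in the ysf3-intron deletion, where the shares were 2.49% and 0.28%. In log phase 28 were higher and 3 lower in the mms2-intron deletion (13.9% and 13.3% of all genes) and 29 higher and 4 lower in the ysf3-intron deletion (13.7% and 13.5%), all by the edgeR test. At an unadjusted p under 0.05, 40, 32, 40 and 44 of the 57 genes passed in these comparisons, in the order given. Of all 6068 genes 1916, 1240, 2621 and 2530 did. The 0 lower at 48 h stayed 0 in the mms2-intron deletion by DESeq2. In the ysf3-intron deletion it became 1 by DESeq2, and also 1 in an edgeR fit of only the libraries compared. The medians of the 57 genes were 0.86 and 0.53 at 48 h and 0.64 and 0.68 in log phase, the mms2-intron deletion first, beside 0.04, 0.01, -0.01 and -0.01 over all genes. The large subunit had medians of 0.84 and 0.47 at 48 h and 0.68 and 0.76 in log phase. Both deletions were set against the same wild-type libraries, so the comparisons are not independent. The authors' deposited tables, at the stricter adjusted p under 0.001 (DESeq2), list 13 and 14 of the 57 genes as higher at 48 h, and 26 and 17 in log phase. They list 1 as lower in the mms2-intron deletion in log phase, RPS26B. These tables hold 179 and 224 genes in all at 48 h, and 547 and 309 in log phase.

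These counts rest on single libraries. The mms2-intron deletion in log phase had 28 higher genes, and 0 without wild-type log replicate 2 or without its own replicate 2, while the median stayed at 0.53 and 0.62. At 48 h it had 0 without wild-type 48 h replicate 1 or without its own replicate 2, with medians of 0.62 and 0.59. The ysf3-intron deletion in log phase had 1 without wild-type log replicate 2, with a median of 0.53, and at 48 h 0 without wild-type 48 h replicate 1 or either replicate of its own, with medians of 0.30 to 0.57. Over all 57 genes, wild-type strain 2 lay at a median of -0.29 relative to strain 1 in log phase and 0.45 at 48 h. The ysf3-intron deletion's strains differed by -0.49 in log phase, replicate 2 being the lower.

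RPS29A (YLR388W) was higher in each deletion in both phases. Its protein, a zinc-binding one of the subunit head, differs from that of RPS29B at 5 residues. The whole coding sequences are printed for the pair, with the 14 bases that differ in capitals.
RPS29A, chrXII:898651-898821, plus strand: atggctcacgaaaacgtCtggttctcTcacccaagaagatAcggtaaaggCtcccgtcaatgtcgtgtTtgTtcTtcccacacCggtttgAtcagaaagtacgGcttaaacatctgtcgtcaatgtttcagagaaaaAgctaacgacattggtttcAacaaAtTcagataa
RPS29B, chrIV:340628-340798, minus strand: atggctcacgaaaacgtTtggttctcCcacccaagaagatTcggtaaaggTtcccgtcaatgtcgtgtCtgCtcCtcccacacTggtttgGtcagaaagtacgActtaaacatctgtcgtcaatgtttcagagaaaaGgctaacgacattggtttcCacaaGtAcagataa
At 48 h RPS29A had 10.1 and 12.5 CPM in the mms2-intron deletion, 9.56 and 8.03 CPM in the ysf3-intron deletion and 0.945 and 2.77 CPM in the wild type. In log phase it had 44.4 and 50 CPM, 71.1 and 41.9 CPM, and 9.59 and 6.94 CPM, in the same order. Neither deletion overlaps the wild type, which was a condition for naming the gene. Of all 6068 genes, 2192 and 1974 were higher without overlap at 48 h and 2205 and 1790 in log phase. For RPS29A, wild-type strain 2 differed from strain 1 by 1.41 at 48 h and by -0.46 in log phase, on the log2 scale. The 48 h calls that follow were lost without wild-type 48 h replicate 1. They were also lost without replicate 2 of the mms2-intron deletion and without either replicate of the ysf3-intron deletion, each in its own comparison. In the mms2-intron deletion the log-phase call was lost without wild-type log replicate 2 or its own replicate 2. The log2 fold change over the wild type at 48 h was 2.40 ± 0.40 (adjusted p = 0.014) in the mms2-intron deletion and 2.01 ± 0.40 (adjusted p = 0.037) in the ysf3-intron deletion, and in log phase 2.51 ± 0.33 (adjusted p = 0.012) and 2.77 ± 0.33 (adjusted p = 0.0048).

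RPS29B, which gave most of the pair's counts, did not pass in any comparison. At 48 h it had 360 and 184 CPM in the mms2-intron deletion, 251 and 204 CPM in the ysf3-intron deletion and 395 and 296 CPM in the wild type, and in log phase 935 and 1217 CPM, 833 and 911 CPM, and 1059 and 1376 CPM. Its log2 fold changes lay between -0.60 and -0.18, none past the threshold. RPS29A thus held 2.72 to 6.37% of the pair's counts at 48 h in the deletions against 0.239 and 0.927% in the wild type, and 3.95 to 7.86% in log phase against 0.897 and 0.502%. The log2 ratio differed by 3.07 ± 0.57 and 2.91 ± 0.57 at 48 h and 2.68 ± 0.57 and 3.19 ± 0.57 in log phase (SE, limma), and passed in all 4 comparisons.

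Other thinly counted genes, RPS28B, RPS21A, RPS21B, RPS28A and RPS27A, were also among the higher ones, on calls that rest on single libraries too. At 48 h RPS21A and RPS21B had larger fold changes than RPS29A in both deletions. In log phase RPS21A had 16 and 25.0 CPM in the mms2-intron deletion, 34.0 and 20.4 CPM in the ysf3-intron deletion and 6.95 and 3.71 CPM in the wild type, which gave 1.95 ± 0.36 and 2.35 ± 0.36. RPS28B gave 2.11 ± 0.52 and 2.54 ± 0.51, RPS21B 1.85 ± 0.42 and 2.53 ± 0.42, and RPS28A 1.56 ± 0.35 and 1.56 ± 0.35. At 48 h in the mms2-intron deletion RPS21A gave 2.54 ± 0.56, RPS21B 2.50 ± 0.51, RPS28B 2.33 ± 0.65 and RPS27A 2.29 ± 0.39, on wild-type counts of 2 and 10, 2 and 26, 2 and 8, and 5 and 23. In the ysf3-intron deletion at 48 h RPS21B gave 2.25 ± 0.51 (adjusted p = 0.048) and RPS21A 2.16 ± 0.57 (adjusted p = 0.066). The mean level of a gene ran against its difference, with Spearman's rho of -0.64 and -0.55 at 48 h and -0.52 and -0.52 in log phase over 57 genes that share libraries.

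Well-counted genes were higher too, on calls that also rest on single libraries. The 48 h calls of RPS2 and ASC1 below were lost without wild-type 48 h replicate 1. Those of RPS2, RPS13 and ASC1 in the mms2-intron deletion in log phase were lost without wild-type log replicate 2. RPS2 had 1252 and 1294 CPM in log phase in the mms2-intron deletion, 1845 and 1270 CPM in the ysf3-intron deletion and 515 and 413 CPM in the wild type, and rose by 1.46 ± 0.27 (adjusted p = 0.012) and 1.75 ± 0.27 (adjusted p = 0.0052). At 48 h it rose by 1.54 ± 0.28 and 1.45 ± 0.27. RPS13 had 1933 and 2058 CPM, 2703 and 1739 CPM, and 813 and 628 CPM in log phase, in the same order, for 1.47 ± 0.26 and 1.62 ± 0.26. ASC1 was higher in all 4 comparisons, by 1.29 ± 0.19 and 1.44 ± 0.19 at 48 h and 0.75 ± 0.18 and 1.15 ± 0.18 in log phase.

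Fewer genes were lower, and in the edgeR fit over all 6 groups only in log phase. RPS26B, a gene for the protein at the mRNA exit channel that Tsr2 delivers, had 1009 and 883 CPM in the mms2-intron deletion, 991 and 731 CPM in the ysf3-intron deletion and 1438 and 1545 CPM in the wild type. Neither deletion overlaps the wild type, which was a condition for naming the gene. Of all 6068 genes, 2272 and 2048 were lower without overlap in the mms2-intron and ysf3-intron deletions. The log2 fold changes of RPS26B were -0.66 ± 0.16 (adjusted p = 0.020) and -0.79 ± 0.16 (adjusted p = 0.0092). RPS15 was lower in the ysf3-intron deletion, at -0.60 ± 0.15 (adjusted p = 0.017), and was at -0.22 ± 0.15 (adjusted p = 0.28) in the mms2-intron deletion. Scaling by library totals, which moved the median of all genes to -0.15 and -0.18 in log phase, gave 8 and 9 lower genes in place of 3 and 4. Without wild-type log replicate 2 there were 0 in both deletions, with RPS26B at -0.61 (adjusted p = 0.14) and -0.73 (adjusted p = 0.089) and RPS15 at -0.51 (adjusted p = 0.14) in the ysf3-intron deletion. RPS26B also lost its call without mms2-intron deletion log replicate 2 (-0.56, adjusted p = 0.16) and RPS15 without ysf3-intron deletion log replicate 2 (-0.56, adjusted p = 0.053). Fitting only the libraries compared left 0 lower genes in the ysf3-intron deletion and 4 in the mms2-intron deletion.

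**Figure D4:**
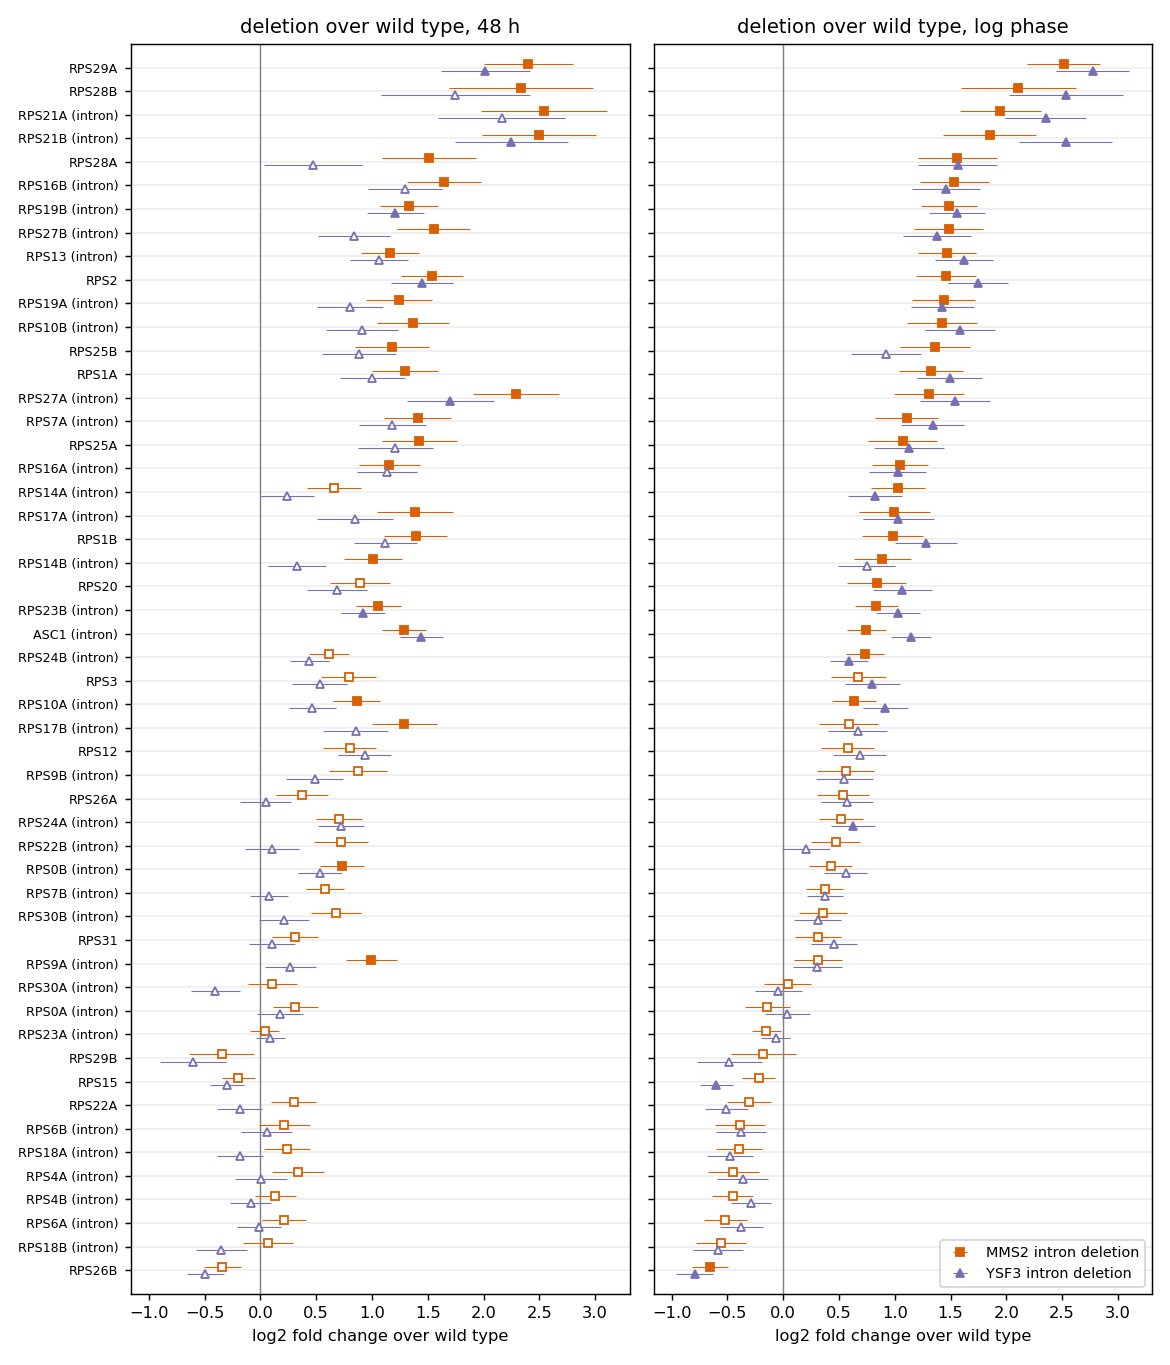
Log2 fold change over the wild type (x axis) for 52 of the 57 genes (y axis, ordered by the mms2-intron deletion in log phase), at 48 h on the left and in log phase on the right, with the approximate error as a bar. Squares are the mms2-intron deletion and triangles the ysf3-intron deletion, filled where the adjusted p is under 0.05. RPS29A is at the top with 2.40 and 2.01 at 48 h and 2.51 and 2.77 in log phase.

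Genes with and without an intron were also counted apart. At 48 h in the mms2-intron deletion 19 of 37 genes with an intron and 9 of 20 without were higher, with medians of 0.86 and 0.85, and in the ysf3-intron deletion 5 and 2, with medians of 0.46 and 0.61. In log phase 18 and 10 were higher in the mms2-intron deletion, with medians of 0.59 and 0.76, and 18 and 11 in the ysf3-intron deletion, with medians of 0.62 and 0.86. Of the A and B genes 12 each were higher at 48 h in the mms2-intron deletion and 2 and 3 in the ysf3-intron deletion, and in log phase 12 and 11, and 14 and 9.

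Across the 57 genes, a deletion's difference from the wild type was compared with the difference between the wild-type strains themselves. Within a phase, they ran together at 48 h and in opposite directions in log phase. The strain difference, strain 2 minus strain 1, changed sign between phases at the median, from -0.29 in log phase to 0.45 at 48 h. Spearman's rho with wild-type strain 2 minus strain 1 was 0.83 and 0.77 at 48 h and -0.83 and -0.80 in log phase for the mms2-intron and ysf3-intron deletions. Both axes use the same wild-type libraries there. Across phases, where the libraries differ but the strains are the same, rho of the log-phase difference with the strain difference at 48 h was 0.89 and 0.87, and that of the 48 h difference with the strain difference in log phase was -0.83 and -0.82. Set against wild-type strain 2 alone, the medians were 0.62 and 0.30 at 48 h and 0.80 and 0.91 in log phase, and 0, 0, 27 and 29 genes were higher. The share of small nucleolar RNA moved with genotype as given above, and so did that of the U2 RNA, at 7.13 ± 0.898, 6.76 ± 0.138 and 10 ± 1.82% at 48 h and 1.52 ± 0.156, 1.47 ± 0.182 and 3.21 ± 0.501% in log phase (mean ± SD, n = 2, wild type last). The part of library makeup, mating type or strain in these differences was not tested.

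**Figure D5:**
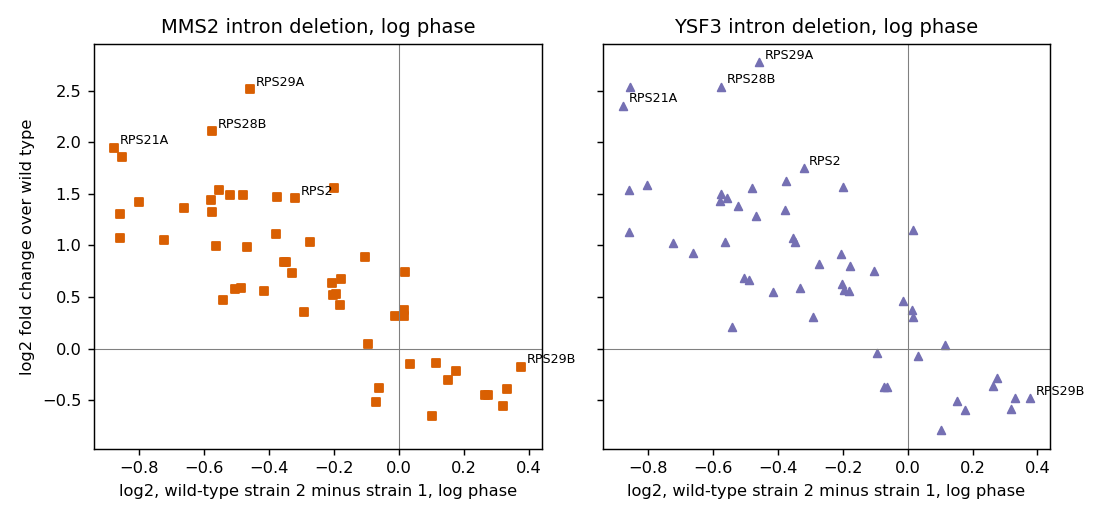
Log2 fold change over the wild type in log phase (y axis) against the log2 difference of wild-type strain 2 minus strain 1 in log phase (x axis) for 52 of the 57 genes, the mms2-intron deletion on the left and the ysf3-intron deletion on the right. Genes lower in wild-type strain 2 than in strain 1 tend to be higher in the deletions, with rho of -0.83 and -0.80 over all 57.

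In the A to B ratio, 4 of 24 pairs differed from the wild type at 48 h in the mms2-intron deletion (13.2% of all pairs) and 3 in the ysf3-intron deletion (5.8%), and 7 (16.6%) and 8 (16.1%) in log phase. RPS23, RPS7 and RPS29 differed in all 4 comparisons. RPS23A, for a protein of the decoding centre, held 58.0 and 53.5% of its pair at 48 h in the mms2-intron deletion, 59.5 and 57.9% in the ysf3-intron deletion and 75.3 and 68.7% in the wild type, a log2 difference of -1.04 ± 0.21 and -0.86 ± 0.21. In log phase it held 58.8 and 54.9%, 51.8 and 58.7%, and 69.8 and 75.1%, for -1.0 ± 0.21 and -1.09 ± 0.21. RPS7 and RPS26 are named after their values were seen. RPS7 moved the other way, toward A, by 0.83 ± 0.21 and 1.15 ± 0.21 at 48 h and 0.75 ± 0.21 and 0.95 ± 0.21 in log phase. RPS26 moved toward A by 1.19 ± 0.19 and 1.35 ± 0.19 in log phase, and RPS10, RPS22 and RPS0 moved toward B there in both deletions, with log2 differences between -0.84 and -0.54. These counts of pairs also fell to 0 without wild-type log replicate 2 in log phase and without wild-type 48 h replicate 1 at 48 h.

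Whether a deletion changed the phase response itself was tested as the difference of phase changes. No small-subunit gene passed in either deletion, where 0% of all genes did, by edgeR or by DESeq2. At an unadjusted p under 0.05, 4 of 57 passed in the mms2-intron deletion and 0 in the ysf3-intron deletion, beside 568 and 284 of 6068 genes. The median difference of the 57 genes was 0.23 and -0.11, beside 0.09 and 0.04 over all genes. The largest were RPS27A at 0.98 ± 0.50, RPS4A at 0.79 ± 0.32, RPS6A at 0.73 ± 0.28, RPS17B at 0.70 ± 0.39 and RPS9A at 0.68 ± 0.32 in the mms2-intron deletion. In the ysf3-intron deletion they were RPS28A at -1.09 ± 0.56, RPS28B at -0.79 ± 0.89, RPS29A at -0.76 ± 0.52, RPS10B at -0.68 ± 0.44 and RPS19A at -0.62 ± 0.40. No small-subunit pair passed in the ratio either, where 0 of all 897 pairs did by limma. At an unadjusted p under 0.05 by limma, 2 and 1 of 24 passed, a count not set against all pairs.

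Of 6 regulators of these genes, 3 rose at 48 h in the mms2-intron deletion, 2 in the ysf3-intron deletion and 2 in the wild type, and none fell. Of all genes 33.4%, 33.9% and 32.8% rose, so the count is near the background. CRF1, the corepressor that displaces Ifh1 from Fhl1, rose by 2.86 ± 0.27, 3.07 ± 0.27 and 3.08 ± 0.26, and SFP1, an activator, by 0.71 ± 0.20, 0.88 ± 0.20 and 1.09 ± 0.20. IFH1 rose by 0.56 ± 0.22 in the mms2-intron deletion (adjusted p = 0.049), and FHL1, RAP1 and HMO1 did not pass in any genotype. YPK3, the kinase of Rps6, fell, at -1.02 ± 0.16, -1.16 ± 0.16 and -1.32 ± 0.16. Of 5 listed chaperones 4, 4 and 5 fell, among them TSR2, which carries Rps26, at -2.61, -2.46 and -2.74. SYO1 was at -1.98, -2.29 and -2.75, though it is known to carry the large-subunit proteins Rpl5 and Rpl11. Of 12 late 40S assembly factors 8, 7 and 9 fell, with RRP12 at -1.75, -1.85 and -2.28. Of all genes 30.7%, 32.9% and 34.3% fell, in the same order of genotypes. In log phase 3 of 5 chaperones were lower in each deletion than in the wild type, where 13.3% and 13.5% of all genes were lower, with YAR1, which carries Rps3, at -0.78 ± 0.14 and -1.0 ± 0.14. At 48 h SYO1 was the only one of the 5 to pass in either deletion, and it was higher in the mms2-intron deletion, at 0.72 ± 0.19 (adjusted p = 0.037). EDC3 was lower in log phase, at -0.54 ± 0.13 in the mms2-intron deletion and -0.51 ± 0.13 in the ysf3-intron deletion. At 48 h it was lower in the mms2-intron deletion, at -0.49, and did not pass in the ysf3-intron deletion, at -0.30. Any link to the level of RPS28B was not tested. The genotype calls of these chaperones and of EDC3 were not followed in the fits without single libraries.

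RPS22B and ASC1 host small nucleolar RNAs in their introns. SNR44, in the intron of RPS22B, had 116 and 128 CPM at 48 h in the mms2-intron deletion, 155 and 125 CPM in the ysf3-intron deletion and 23.8 and 32.5 CPM in the wild type, and in log phase 101.3 and 136 CPM, 177 and 77.2 CPM, and 24.0 and 17.95 CPM. It was higher by 2.10 ± 0.35 and 2.29 ± 0.35 at 48 h and 2.50 ± 0.35 and 2.60 ± 0.35 in log phase, past the threshold each time. These calls were not followed in the fits without single libraries. Small nucleolar RNA as a whole also held a larger share of counts in the deletions, as given above. RPS22B itself was at 0.72 ± 0.24 and 0.10 ± 0.24 at 48 h and 0.47 ± 0.22 and 0.21 ± 0.22 in log phase, and did not pass. Between phases SNR44 did not pass in any genotype, at 0.04, 0.14 and 0.44, while RPS22B fell, at -2.69, -3.05 and -2.94. SNR24, in the ASC1 intron, did not pass the filter on low counts.

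The 300 bases that end 100 bases before each start codon were searched on both strands for ACCCNTACA (Rap1), GACGC (Fhl1) and the Abf1 motif. The Rap1 letters stood in 9 of 57 windows (15.8%), in 18 of 82 for the large subunit (22%) and in 79 of 6001 over all protein-coding genes (1.32%). The Fhl1 letters stood in 22 of 57 (38.6%) against 20.8% of all genes. For the Abf1 letters it was 20 of 57 (35.1%) against 34.4%. Only exact matches to these letters were counted, so a window without a match may still hold a site. The windows of RPS22A, the gene that lay lowest at 48 h, and of RPS16A, with the most Rap1 matches, are printed from sacCer3 on the gene's strand, with matches to the Rap1 and Fhl1 letters in capitals.
RPS22A, chrX:75403-75702, minus strand: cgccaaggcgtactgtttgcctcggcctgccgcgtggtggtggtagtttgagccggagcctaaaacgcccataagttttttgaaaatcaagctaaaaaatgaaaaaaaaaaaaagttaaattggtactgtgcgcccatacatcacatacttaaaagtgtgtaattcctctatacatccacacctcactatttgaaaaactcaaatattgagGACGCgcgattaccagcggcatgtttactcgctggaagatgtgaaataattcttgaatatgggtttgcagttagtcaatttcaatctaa
RPS16A, chrXIII:551528-551827, plus strand: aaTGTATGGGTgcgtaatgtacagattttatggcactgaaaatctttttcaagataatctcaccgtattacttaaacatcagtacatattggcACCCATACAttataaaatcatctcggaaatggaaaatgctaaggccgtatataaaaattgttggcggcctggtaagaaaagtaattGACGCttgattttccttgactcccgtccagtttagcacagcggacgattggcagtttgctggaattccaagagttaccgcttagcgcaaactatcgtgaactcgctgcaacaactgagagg

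The 37 introns were 256 to 551 nt long with a median of 408 nt, against 49 to 1002 nt with a median of 113.5 nt for 244 others of the genome. The letters GTATGT open 25 of the 37 (67.6%, against 73.8% of the others), and TACTAAC, the branch point sequence, lies in 34 (91.9% against 81.1%). The 3 without TACTAAC are those of RPS9A, RPS9B and RPS21A.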

How the data were processed

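RNA-seq of 12 libraries was used. Reads were aligned with Bowtie2 to sacCer3 and counted per gene with HTSeq, per the submitters' processing notes. Bowtie2 does not split reads over introns, and the strand setting of the counting is not given in the sources used here. The deposited count table holds raw counts. The authors' FPKM values were used only to check gene length: for 37 of 37 genes with an intron the length they imply is within 1% of the exon of lowest coordinate, so levels are given as CPM per kb of whole coding length. The authors' deposited tables of log2 fold changes and adjusted p-values (DESeq2, per the submitters' processing notes) list genes at an adjusted p under 0.001.

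Counts were fitted over all 6 groups with the edgeR 4.0.16 quasi-likelihood test (R 4.3.3, TMM scaling, Benjamini-Hochberg adjustment, threshold 0.05). Library totals ran from 4871513 to 16581925. Log2 ratios of paralogs (a prior count of 2 on average, scaled to library size) were tested with limma 3.58.1, and pairs came from BLAST 2.17.0. DESeq2 1.42.0, other scalings, a fit without the filter, a replicate block and fits without single libraries were the alternatives. Python 3.11.15 was used for sequences. IDs were matched to the RefSeq annotation, 6048 by locus tag and 114 by symbol, and 964 did not match. The fits were tested on simulated data.

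The members and lists were chosen with earlier results of these data known. Genes named are the 4 lowest and 4 highest per phase comparison in the wild type, up to 5 highest and 5 lowest called genes per genotype comparison whose groups do not overlap, the 9 without a paralog, the 8 pairs whose ratio moved most in 1 direction in all 6 strains and the 3 that moved least, and the 5 largest differences of phase change, with the hosts of small nucleolar RNAs and RPS6A, RPS6B, RPS14B and RPS28B. The strain number pairs the phases of 1 genotype, since both libraries come from 1 strain. The residuals of such pairs correlated at 0.06 in the mms2-intron deletion, 0.04 in the ysf3-intron deletion and -0.16 in the wild type. Across genotypes the number pairs nothing. A few genes of the set enter the counts and medians but are not reported here one by one.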

Additional observations from a re-analysis of the deposited data

How the results depend on the processing

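Leaving out 1 library at a time gave 54 to 56 lower genes in the mms2-intron deletion, 56 to 57 in the ysf3-intron deletion and 55 to 56 in the wild type, and 16 to 18 pairs with a changed ratio between phases. Without both libraries of wild-type strain 1, 52 genes were lower at 48 h in the wild type in place of 56, with a median of -2.34, RPS21B, RPS20 and RPS14B among those that lost their calls. The genotype calls moved more, and the causes were not tested. Leaving out 1 library gave 0 to 34 higher and 0 to 0 lower genes at 48 h in the mms2-intron deletion and 0 to 11 higher and 0 to 1 lower in the ysf3-intron deletion. In log phase it gave 0 to 27 higher and 0 to 3 lower in the mms2-intron deletion and 1 to 39 higher and 0 to 7 lower in the ysf3-intron deletion. Pairs with a changed ratio ran from 0 to 5 and 0 to 4 at 48 h and from 0 to 7 and 0 to 7 in log phase, the mms2-intron deletion first. Where this left a group with 1 library, that library is assumed to vary like the others. Without both libraries of wild-type strain 1, 0 genes were higher and 0 pairs changed at 48 h in either deletion.

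Library totals as the scale gave 8 lower genes in the mms2-intron deletion and 9 in the ysf3-intron deletion in log phase. A fit of only the libraries compared gave 17 higher genes at 48 h in the mms2-intron deletion, 23 higher and 1 lower at 48 h in the ysf3-intron deletion, and 0 lower there in log phase. DESeq2 gave 18 higher and 1 lower in the ysf3-intron deletion at 48 h. With the replicate block, 0 genes were higher in the ysf3-intron deletion at 48 h and 5 pairs had a changed ratio in log phase, and no phase call was lost. With protein-coding counts as the denominator the share of the 57 genes was 0.953% at 48 h and 4.81% in log phase in the mms2-intron deletion, 0.827% at 48 h in the ysf3-intron deletion, and 0.697% and 4.39% in the wild type. No value changed sign while called. Depth limits RPS21A, RPS21B, RPS27A and RPS28B most.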
